A study of Rattus norvegicus with 18 samples.

Results

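Integrins are receptors built from 1 alpha and 1 beta chain, and laminins are basal lamina proteins built from 1 alpha, 1 beta and 1 gamma chain. Their mRNAs were taken as every entry of the deposited transcript table whose gene symbol is Itga, Itgb, Lama, Lamb or Lamc followed by a number. Itga followed by v, x, m, l, d or e was also taken, which added Itgav, Itgax, Itgam and Itgal. Symbols with a letter after the number, such as Itga2b, do not meet that rule. 27 of the 13416 entries met that rule, and each of them is a separate gene: 13 integrin alpha chains, 7 integrin beta chains and 7 laminin chains. RefSeq (GRCr8) lists 36 rat symbols of this form, and the other 9, among them Itga7 and Lama2, were not analysed here. All 27 entries passed the filter on low counts in both fits.

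The RNA came from the sciatic nerve of Sprague-Dawley (SD) rats, in which axons were regrowing 7 days after a crush. Axoplasm, the content of the axons, was pressed out of the proximal nerve without detergent, cleared by centrifugation and by empty Protein A/G beads, and used for RNA immunoprecipitation (RIP), in which an antibody pulls down an RNA-binding protein together with its RNA. The 4 antibodies of interest recognised La/SSB, hnRNP K, hnRNP F and hnRNP H1. An antibody to FLAG, a tag with no named target in these rats, made a control group, and unprecipitated axoplasm RNA (Input) made the sixth. Each group had 3 libraries, 18 in all, and every library came from crushed nerve of the same strain, so the design holds no uninjured nerve. The labels give neither age nor sex and do not say whether libraries came from separate animals, so p-values measure the spread between these libraries only.

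Laminins polymerise into the sheet that surrounds each Schwann cell and axon unit in peripheral nerve, and integrins on Schwann cells, axons, fibroblasts, blood vessels and leukocytes bind them or other matrix proteins. Regenerating axons grow along these laminin sheets, and integrin mRNAs can be made into protein within axons. hnRNP H1 and hnRNP F are close relatives that bind runs of G, hnRNP K binds runs of C, and La/SSB binds the U-rich ends of small RNAs and also some mRNAs.

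Read totals per library ran from 4610750 to 16754262, and levels are given as CPM, reads per 1000000 after TMM scaling, in the order of libraries 1, 2 and 3. Fold changes are log2 values with their standard error (SE), from edgeR's quasi-likelihood test with 3 libraries against 3 unless another number is given, and an entry was called at a Benjamini-Hochberg adjusted p under 0.05 over all entries tested. The FLAG RIP libraries varied most, with a median SD of 0.96 (log2) over the 27 entries, against 0.35 in hnRNP K RIP and 0.51 in Input. Markers of cells other than neurons were present in Input: the 11 fibroblast and perineurial markers took 4.86% to 9.66% of the reads, the 15 of 16 Schwann cell markers found 0.339% to 0.408%, the 10 of 15 macrophage and leukocyte markers 0.813% to 1.101%, and the 10 of 13 neuronal markers 0.103% to 0.128%. The neuronal marker Prph had 0 reads in 1 Input library. In such bulk RNA fewer cells of a type and less RNA per cell cannot be told apart.

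Laminin gamma chain mRNA dominated the group. Lamc1, the gamma chain of most laminin trimers, had the highest level per length in Input, at 387 FPKM (reads per kilobase and 1000000 reads, mean of 3), followed by Itgb1 at 131, Itga6 at 83.6, Lama4 at 52.0, Lamb1 at 46.6 and Itga5 at 23.0 FPKM. The lowest were Itgb5 at 0.257 and Itgav at 0.497 FPKM. Together the 27 mRNAs took between 0.180% and 0.647% of a library's reads, lowest in hnRNP F RIP 3 and highest in hnRNP K RIP 1. Lamc1 alone made up 36.0% to 81.2% of those reads. The map of mRNAs by library sets each library against the Input mean.

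**Figure D1:**
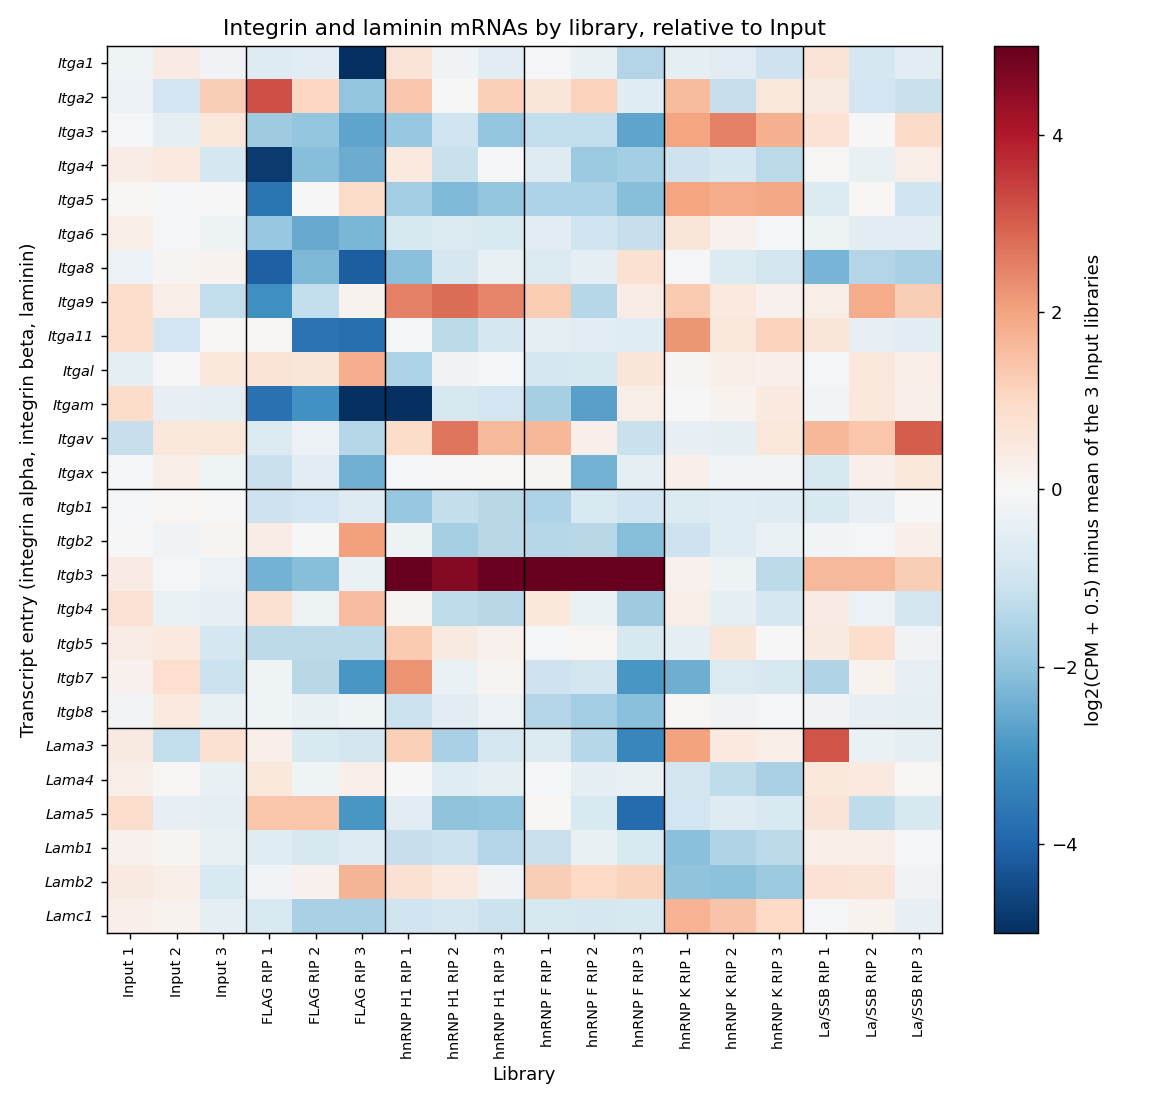
Heat map of 26 of the 27 mRNAs (rows: integrin alpha, integrin beta and laminin chains, separated by lines) in the 18 libraries (columns); colour is log2(CPM + 0.5) minus the mean of the 3 Input libraries, with the colour scale cut at 5 and -5. Itgb3 is dark red in all 6 hnRNP H1 and hnRNP F libraries, Lamc1, Itga3 and Itga5 are red in the 3 hnRNP K libraries, and Itga6 is blue in the 3 FLAG libraries.

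The first question of the design is which mRNAs each antibody brought down beyond the FLAG antibody. Against FLAG RIP, 11 of the 27 mRNAs were called with hnRNP H1 (8 higher, 3 lower), where 39.5% of all 13276 entries tested were called (18.3% higher, 21.2% lower). With hnRNP F 10 were called (6 higher, 4 lower; 33.7% of all entries, 16.6% higher and 17.1% lower), and with hnRNP K 13 were called (9 higher, 4 lower; 33.9% of all entries, 14.5% higher and 19.4% lower). With La/SSB 9 were called, all higher, where 18.8% of all entries were called 9.1% higher and 9.67% lower. The median log2 change of the 27 was 0.62, 0.44, 1.22 and 1.17 with hnRNP H1, hnRNP F, hnRNP K and La/SSB, beside -0.27, -0.21, -0.30 and -0.32 over all entries, and these medians were the same with the genes at 0 in FLAG set to their lower bounds. These 4 comparisons share the FLAG libraries, so they are not independent of each other. Every entry has at least 10 reads in La/SSB RIP 1, so mRNAs low elsewhere may be listed only through that library. That would favour La/SSB calls above FLAG for such mRNAs. With FLAG RIP 1 and 3 left out of the control group 5, 5, 7 and 4 calls were left, without FLAG RIP 3 alone the hnRNP H1 calls were 7 and without hnRNP K RIP 1 the hnRNP K calls were 8. With the libraries scaled by their totals the hnRNP H1 calls were 6 higher and 6 lower, the hnRNP F calls 5 higher and 5 lower and the hnRNP K calls 7 higher and 5 lower. The FLAG libraries themselves lay below Input: 9 of the 27 were called lower than Input and 0 higher, where 16.2% of all 13300 entries were called (8.71% higher, 7.45% lower). They included Itga6, Lamc1, Itgam, Itga8, Itgb5, Itga4, Itga3 and Itgb1, of which Itgb5 was lost without Input 2 (0.0502), Itga4 without Input 1 (0.055) or Input 2 (0.0592), Itga3 without FLAG RIP 3 (0.063) or Input 3 (0.0714) and Itgb1 without any 1 of 6 libraries (0.0506 to 0.109).

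**Figure D2:**
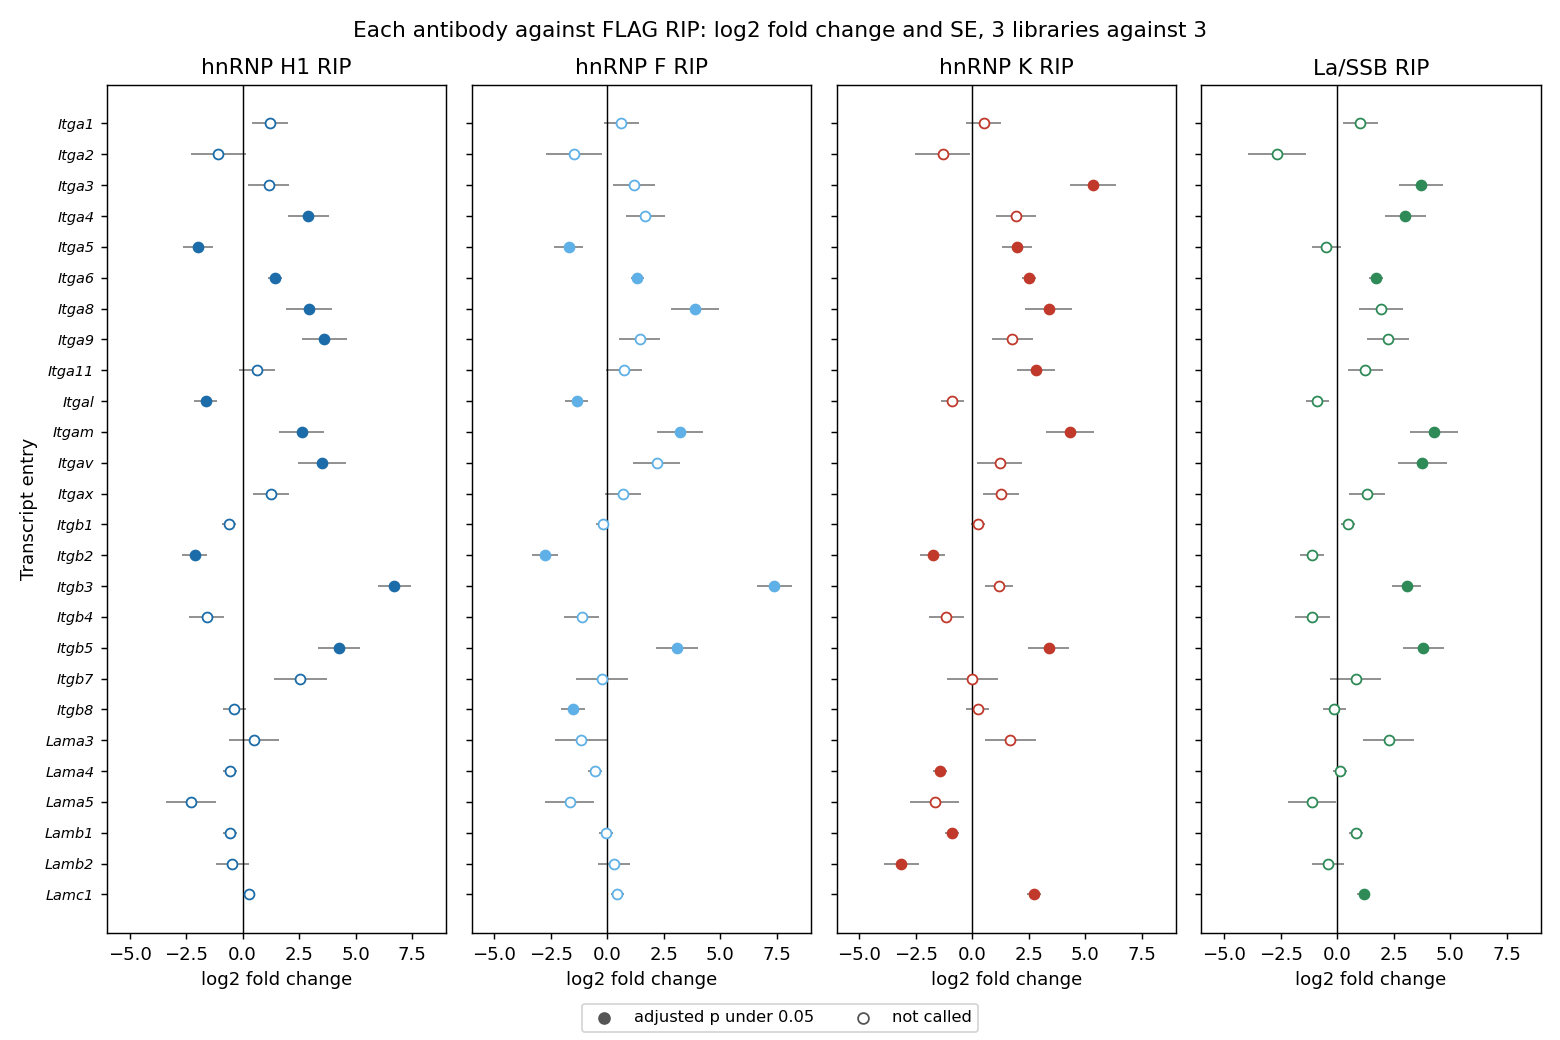
Log2 fold change (x axis) of 26 of the 27 mRNAs (rows) in each of the 4 antibody groups against FLAG RIP, with bars of 1 SE; filled points have an adjusted p under 0.05. Itgb3 lies farthest right with hnRNP H1 (6.72) and hnRNP F (7.38), Lamc1 and Itga3 stand right and Lamb2 left with hnRNP K, and the fitted values of Itgb5, at 0 reads in FLAG RIP, are no measure of size.

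Among the laminin chains hnRNP K RIP set the gamma chain apart from its partners. Lamc1 stood at 7916, 6259.8 and 4735 CPM in hnRNP K RIP, against 2835, 2696 and 1711 in Input and 1380.0, 765 and 761 in FLAG RIP. It stood at 1182, 1295 and 1115 CPM in hnRNP H1 RIP, at 1359, 1267 and 1359 in hnRNP F RIP and at 2225, 2681 and 1793 in La/SSB RIP. The 3 hnRNP K libraries were above the other 15, and the FLAG, hnRNP H1 and hnRNP F libraries overlapped each other. Lamc1 rose with hnRNP K against FLAG by 2.73 ± 0.30 (adjusted p = 5.33e-06), against Input by 1.38 ± 0.28 (adjusted p = 0.00192) and against hnRNP H1 and hnRNP F together by 2.36 ± 0.23 (3 libraries against 6; adjusted p = 2.58e-07). It rose less far with La/SSB against FLAG (1.17 ± 0.28, adjusted p = 0.0091), and with hnRNP H1 and hnRNP F its change against FLAG was 0.29 ± 0.28 and 0.44 ± 0.28 with no call.

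Lama4, an alpha chain of the laminins of blood vessels and of developing or injured nerve, went the other way in the same hnRNP K libraries. It stood at 132, 102 and 80.9 CPM there, against 361, 216 and 295 in FLAG RIP and 304, 261 and 192 in Input. It stood in hnRNP H1 RIP at 247, 161 and 182 CPM, in hnRNP F RIP at 240.1, 179.8 and 189 and in La/SSB RIP at 354, 349 and 259.7. The 3 hnRNP K libraries were below the other 15. Lama4 fell with hnRNP K by 1.44 ± 0.31 against FLAG (adjusted p = 0.00217; 0.0626 when FLAG RIP 2 alone stood for FLAG), by 1.26 ± 0.29 against Input (adjusted p = 0.00637) and by 1.55 ± 0.32 against La/SSB (adjusted p = 0.00283). The fall of 0.89 ± 0.28 against hnRNP H1 and hnRNP F (adjusted p = 0.0184) was not called without hnRNP K RIP 2 (0.0755) or hnRNP K RIP 3 (0.114).

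Lamb1, the beta chain of most Schwann cell laminin, stood at 49.7, 73.4 and 85.5 CPM in hnRNP K RIP, against 248, 235 and 161 in Input, 138, 119.8 and 136 in FLAG RIP and 256, 265 and 195 in La/SSB RIP. Its level in hnRNP H1 RIP was 93.4, 98.8 and 76.6 CPM and in hnRNP F RIP 97.5, 164 and 125. The hnRNP K libraries lay below all Input, FLAG and La/SSB libraries and overlapped those of hnRNP H1. Lamb1 fell with hnRNP K by 1.63 ± 0.30 against Input (adjusted p = 0.00112) and by 1.73 ± 0.32 against La/SSB (adjusted p = 0.00149). The change of -0.90 ± 0.32 against FLAG passed (adjusted p = 0.0348) but was lost without FLAG RIP 1 (0.0548), FLAG RIP 3 (0.054), hnRNP K RIP 1 (0.149) or hnRNP K RIP 2 (0.0811). With hnRNP H1 it fell against Input by 1.26 ± 0.30 (adjusted p = 0.00385), and La/SSB RIP held more of it than hnRNP H1 and hnRNP F together by 1.14 ± 0.26 (adjusted p = 0.00444).

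Lamb2, a beta chain of laminin at synapses and in Schwann cell basal lamina, was a low mRNA with 10 to 15 reads in each hnRNP K library. It stood at 1.01, 0.979 and 1.18 CPM there, against 5.04, 6.61 and 19.3 in FLAG RIP and 7.89, 7.01 and 3.05 in Input. In hnRNP H1 RIP it stood at 9.76, 8.10 and 4.84 CPM, in hnRNP F RIP at 13.9, 11.5 and 12.8 and in La/SSB RIP at 9.43, 9.37 and 4.89. The 3 hnRNP K libraries were below the other 15. Lamb2 fell with hnRNP K by 3.15 ± 0.78 against FLAG (adjusted p = 0.00501) and by 3.07 ± 0.73 against hnRNP H1 and hnRNP F (adjusted p = 0.00301). The fall of 2.41 ± 0.74 against Input passed with all libraries (adjusted p = 0.0333) and ended without any of Input 1, Input 2 and the 3 hnRNP K libraries (0.095 to 0.123). In the same way the fall of 2.73 ± 0.77 against La/SSB (adjusted p = 0.0238) ended without La/SSB RIP 1, La/SSB RIP 2 or any hnRNP K library (0.0637 to 0.0977).

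Lama3, an alpha chain of an epithelial laminin, and Lama5, an alpha chain of mature basal laminae, were scarce, with mean levels of 1.23 and 1.12 FPKM in Input. Neither was called in any of the 13 pairwise comparisons.

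Within single libraries the ratio of chain mRNAs, which needs no scaling between libraries, showed the same split. The FPKM ratio of Lamc1 to Lama4 was 46.6 ± 1.00 (SD, n = 3) in hnRNP K RIP, with a range of 45.6 to 47.6, against 7.41 ± 0.572 in Input, 2.58 ± 0.511 in FLAG RIP, 4.91 ± 1.27 in hnRNP H1 RIP, 5.16 ± 0.655 in hnRNP F RIP and 5.42 ± 0.545 in La/SSB RIP. The ratio of Lamc1 to Lamb1 was 73.9 ± 39.6 in hnRNP K RIP (41.0 to 118), and the other 15 libraries lay between 4.13 and 10.8. A ratio of this kind shows that the chains differed in what was recovered, not which of them moved. With 3 libraries against 3 an exact permutation test of a single ratio cannot go below 0.1, so none was run. The plot of chain ratios by library shows that the hnRNP K libraries do not overlap any other group for these ratios.

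**Figure D3:**
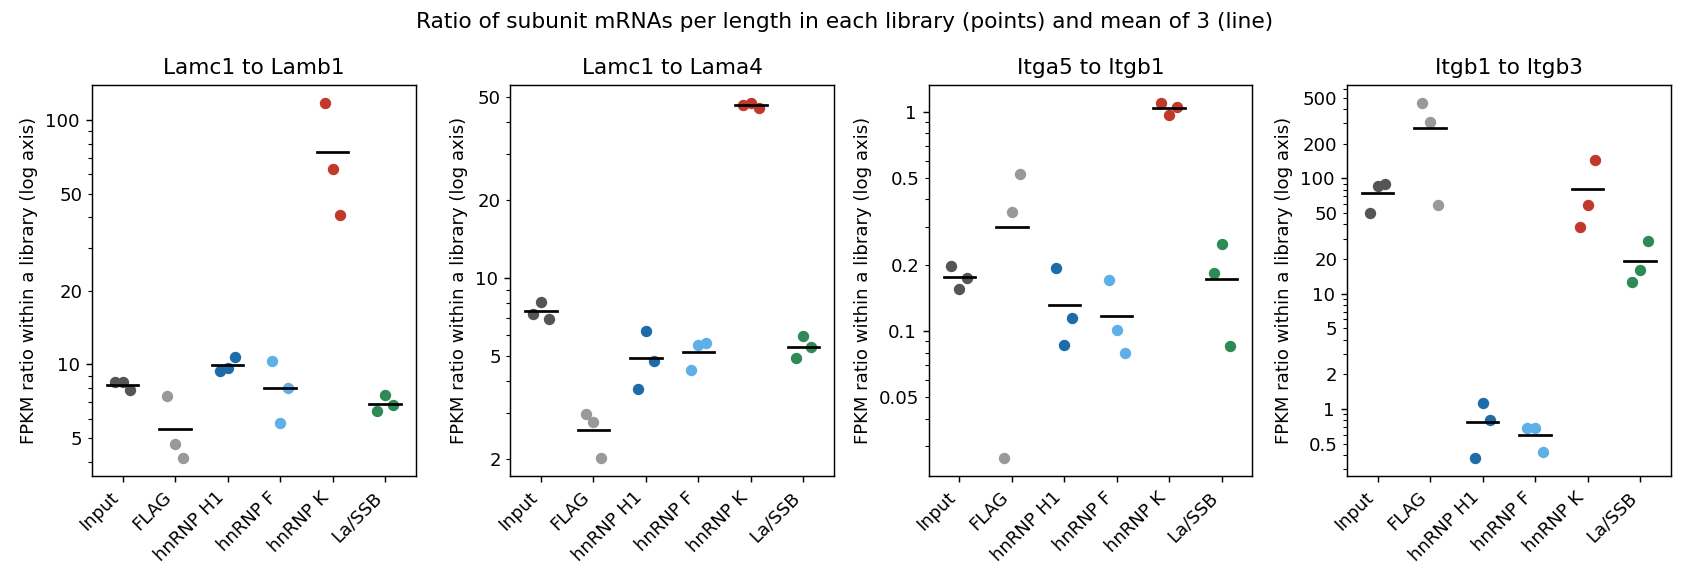
Ratio of the FPKM values of 2 chain mRNAs within each library (y axis, log scale), by group (x axis); points are libraries and lines are means of 3. Lamc1 to Lamb1, Lamc1 to Lama4 and Itga5 to Itgb1 are highest in hnRNP K RIP (means 73.9, 46.6 and 1.04), and Itgb1 to Itgb3 is lowest in hnRNP H1 RIP (0.766) and hnRNP F RIP (0.598).

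Of the integrin alpha chains, Itga6 was called higher than FLAG with all 4 antibodies. Itga6 pairs with Itgb1 or Itgb4 in laminin receptors of Schwann cells and axons. It stood at 108, 69.3 and 82.7 CPM in FLAG RIP, against 497, 385 and 337 in Input and 612, 463 and 375 in hnRNP K RIP. It stood at 229, 239.7 and 237 CPM in hnRNP H1 RIP, at 275, 201 and 178 in hnRNP F RIP and at 337, 268 and 276 in La/SSB RIP. The 3 FLAG libraries were below the other 15. Its rise over FLAG was 2.51 ± 0.31 with hnRNP K (adjusted p = 1.86e-05), 1.73 ± 0.30 with La/SSB (0.00189), 1.43 ± 0.30 with hnRNP H1 (0.00118) and 1.33 ± 0.30 with hnRNP F (0.00254). The hnRNP F rise was lost in a fit of the 6 libraries compared alone (0.0534). FLAG RIP lay below Input (-2.23 ± 0.28, adjusted p = 8.41e-05). Against Input the change of Itga6 was 0.25 ± 0.27 with hnRNP K and -0.47 ± 0.27 with La/SSB, neither called. With hnRNP H1 and with hnRNP F it was called lower than Input. Those calls were lost without any 1 of 8 and of 4 libraries (0.0517 to 0.178 and 0.061 to 0.136). hnRNP K RIP held more Itga6 than hnRNP H1 and hnRNP F together by 1.13 ± 0.25 (adjusted p = 0.00139).

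Itga5, whose product pairs with Itgb1 as the main fibronectin receptor, was among the mRNAs that most clearly separated hnRNP K from hnRNP H1 and hnRNP F. It stood at 323, 299.7 and 314 CPM in hnRNP K RIP, at 24.3, 17.4 and 20.8 in hnRNP H1 RIP and at 27.5, 27.7 and 18.3 in hnRNP F RIP. In Input it stood at 87.8, 77.8 and 79.6 CPM, in La/SSB RIP at 50.0, 87.7 and 40.1, and in FLAG RIP at 6.07, 83.0 and 154. The hnRNP K libraries were above the other 15, while the FLAG libraries spanned the levels of all groups but hnRNP K. The direct difference of hnRNP K from hnRNP H1 and hnRNP F was 3.81 ± 0.54 (adjusted p = 1.94e-05), and it was called under every alternative run. Against FLAG the change was 1.97 ± 0.65 with hnRNP K (adjusted p = 0.0258), -1.96 ± 0.66 with hnRNP H1 (0.0234) and -1.72 ± 0.65 with hnRNP F (0.0483). These calls rested on single libraries. The hnRNP K call was lost without FLAG RIP 2 or any hnRNP K library (0.0506 to 0.0656) and with scaling by totals (0.0901). The hnRNP H1 call was lost without FLAG RIP 3 or any hnRNP H1 library (0.0529 to 0.168), and the hnRNP F call without any 1 of 14 libraries (0.0529 to 0.31). Against Input, hnRNP K RIP was higher by 1.93 ± 0.61 (adjusted p = 0.0393), a call that was lost without any 1 of the 6 libraries compared (0.0784 to 0.113). The FPKM ratio of Itga5 to Itgb1 was 1.04 ± 0.067 in hnRNP K RIP and had means of 0.117 to 0.299 in the other 5 groups.

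Itga3, a laminin receptor chain, was low and also followed hnRNP K. It stood at 11.6, 17.03 and 10.1 CPM in hnRNP K RIP (126, 174 and 128 reads), at 0.409, 0.310 and 0 in FLAG RIP, and at 2.38, 1.75 and 4.01 in Input. It stood in hnRNP H1 RIP at 0.320, 1.05 and 0.312 CPM, in hnRNP F RIP at 0.828, 0.806 and 0 and in La/SSB RIP at 4.60, 2.60 and 5.57. The hnRNP K libraries were above the other 15, and those of FLAG, hnRNP H1 and hnRNP F lay below every Input and La/SSB library. Itga3 rose with hnRNP K by 5.34 ± 1.02 against FLAG (adjusted p = 0.000787) and by 4.17 ± 0.74 against hnRNP H1 and hnRNP F (adjusted p = 0.000208). With La/SSB it rose against FLAG by 3.71 ± 0.95 (adjusted p = 0.0128; 0.171 when FLAG RIP 2 alone stood for FLAG), and against Input the hnRNP K change of 2.16 ± 0.83 was not called (adjusted p = 0.0925).

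Itga11, a collagen receptor chain of fibroblasts, stood at 209.8, 66.9 and 101 CPM in hnRNP K RIP and at 48.4, 3.00 and 2.86 in FLAG RIP. It stood at 83.4, 22.6 and 48.0 CPM in Input, at 43.3, 17.2 and 24.7 in hnRNP H1 RIP, at 32.8, 30.3 and 29.1 in hnRNP F RIP and at 69.1, 33.4 and 31.1 in La/SSB RIP. Its highest library was hnRNP K RIP 1, and the hnRNP K and Input libraries overlapped. Its rise with hnRNP K, 2.81 ± 0.84 against FLAG (adjusted p = 0.015) and 2.13 ± 0.65 against hnRNP H1 and hnRNP F (adjusted p = 0.0162), was lost without hnRNP K RIP 1 (0.0825 and 0.149). The call against FLAG held under 21 of 23 alternatives. Itga1, a receptor chain for collagen and laminin, stood at 38.0, 59.1 and 38.8 CPM in Input and at 28.2, 30.4 and 0.809 in FLAG RIP. In hnRNP H1 RIP it stood at 69.9, 39.5 and 29.7 CPM, in hnRNP F RIP at 41.1, 33.7 and 15.7, in hnRNP K RIP at 31.4, 29.8 and 21.3 and in La/SSB RIP at 69.7, 23.7 and 30.02. The FLAG and hnRNP K libraries lay below every Input library, the other 3 groups overlapped Input, and it was called in none of the 13 pairwise comparisons.

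Itga9, a receptor chain for tenascin, lay between 28.3 and 36.1 CPM in hnRNP H1 RIP, above the other 15 libraries, which reached at most 18.7 CPM. It rose with hnRNP H1 against FLAG by 3.62 ± 0.98 (adjusted p = 0.00693), and its difference from hnRNP F, 2.19 ± 0.92, was not called (adjusted p = 0.442). Itga4, a receptor chain for fibronectin and Vcam1, lay between 0.0682 and 3.1002 CPM in FLAG RIP, below the other 15 libraries. It was called higher with hnRNP H1 (2.90 ± 0.90, adjusted p = 0.0161; 0.0577 without hnRNP H1 RIP 1) and with La/SSB (3.02 ± 0.91, adjusted p = 0.027; 0.0664 without La/SSB RIP 1 and 0.0701 without La/SSB RIP 3). The mean of Itga4 was 6.13 FPKM in Input, 0.660 in FLAG RIP, 3.62 in hnRNP H1 RIP and 6.64 in La/SSB RIP. Itgav, the partner of Itgb3, Itgb5 and Itgb8, lay between 0.0622 and 11.9 CPM over the 18 libraries and had at most 141 reads in a library. It was called higher with hnRNP H1 (3.50 ± 1.06, adjusted p = 0.0142; 0.0575 without hnRNP H1 RIP 2) and with La/SSB (3.77 ± 1.07, adjusted p = 0.021; 0.0579 without FLAG RIP 3 and 0.0785 without La/SSB RIP 3). Itga8, a receptor chain for nephronectin, lay between 0.0622 and 15.9 CPM over the 18 libraries. It was at 1 read in each of 2 FLAG libraries and was called higher with hnRNP F (3.89 ± 1.05, adjusted p = 0.00897), with hnRNP K (3.38 ± 1.03, 0.0174; 0.0564 without hnRNP K RIP 1) and with hnRNP H1 (2.92 ± 1.02, 0.029; 0.0592 to 0.0912 without any 1 of 4 libraries). The hnRNP F call of Itga8 held under 21 of 23 alternatives. The mean of Itga8 was 1.97 FPKM in Input and 0.127 in FLAG RIP. With hnRNP H1, hnRNP F, hnRNP K and La/SSB it was 0.668, 1.26, 0.799 and 0.559 FPKM, so the rises over FLAG stayed below Input. Itga2, a collagen receptor chain, lay between 0 CPM in FLAG RIP 3 and 17.7 CPM in FLAG RIP 1, and was called in none of the 13 pairwise comparisons.

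The integrin chains of leukocytes did not move as one group. Itgb2 is the beta chain that Itgal, Itgam and Itgax share. It stood at 60.5, 47.8 and 195 CPM in FLAG RIP, at 47.7, 41.6 and 51.2 in Input and at 42.9, 44.0 and 55.9 in La/SSB RIP. In hnRNP H1 RIP it stood at 38.9, 14.2 and 17.6 CPM, in hnRNP F RIP at 16.9, 17.4 and 10.2 and in hnRNP K RIP at 22.5, 30.2 and 36.7. Every hnRNP H1, hnRNP F and hnRNP K library lay below every Input, FLAG and La/SSB library. Against FLAG it fell with hnRNP F by 2.76 ± 0.57 (adjusted p = 0.00142), with hnRNP H1 by 2.11 ± 0.56 (0.00614; 0.0638 without FLAG RIP 3) and with hnRNP K by 1.74 ± 0.55 (0.0205; 0.202, 0.0857 and 0.0626 without FLAG RIP 3, hnRNP K RIP 1 and hnRNP K RIP 2). Itgal lay between 14.1 CPM in hnRNP H1 RIP 1 and 149 CPM in FLAG RIP 3. It also fell with hnRNP H1 (-1.62 ± 0.51, adjusted p = 0.0171) but not without FLAG RIP 3 (0.0836) or hnRNP H1 RIP 1 (0.0766), and its call with hnRNP F (-1.35 ± 0.51, adjusted p = 0.0464) was lost without any 1 of 11 libraries (0.0531 to 0.203). Itgam, between 0.187 CPM in FLAG RIP 3 and 51.2 CPM in Input 1 and at 3 to 28 reads in the FLAG libraries, was instead called higher than FLAG with hnRNP K (4.32 ± 1.07, adjusted p = 0.00497), La/SSB (4.297 ± 1.07, 0.0109), hnRNP F (3.22 ± 1.02, 0.0213; 0.0516 without FLAG RIP 3 and 0.162 without hnRNP F RIP 3) and hnRNP H1 (2.61 ± 1.00, 0.045; 0.0505 to 0.137 without any 1 of 11 libraries). The hnRNP K and La/SSB calls of Itgam each held under 22 of 23 alternatives. The hnRNP H1 libraries differed among themselves: the FPKM ratio of Itgam to Itgb2 was 0.0075, 0.970 and 0.710 in them. In FLAG RIP that ratio was 0.0236, 0.0551 and 0.000872, so hnRNP H1 RIP 1 lay within the FLAG range. Itgax lay between 1.37 CPM in FLAG RIP 3 and 13.9 CPM in La/SSB RIP 3 and was called in none of the 13 pairwise comparisons. The 10 macrophage and leukocyte markers, none at 0 in any library, took 1.55% to 2.31% of reads in hnRNP H1 RIP and 1.51% to 3.36% in hnRNP F RIP, against 0.649% to 0.989% in FLAG RIP, 0.517% to 0.891% in hnRNP K RIP and 0.625% to 1.24% in La/SSB RIP. Their part in these results was not tested.

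Itgb3 had the largest fitted change of the 27 mRNAs in any comparison. Its product pairs with Itgav in a receptor for vitronectin, fibronectin and osteopontin, and with another alpha chain on platelets, which is not among the 27. It stood at 179.8, 96.0 and 121 CPM in hnRNP H1 RIP (1124, 735 and 777 reads) and at 127, 214 and 294 in hnRNP F RIP (766, 1327 and 1497 reads). In Input it stood at 4.77, 3.16 and 2.73 CPM, in FLAG RIP at 0.273, 0.413 and 2.68, in hnRNP K RIP at 4.13, 2.84 and 1.103 and in La/SSB RIP at 11.6, 11.7 and 8.77. Every hnRNP H1 and hnRNP F library lay far above the other 12, the hnRNP H1 and hnRNP F libraries overlapped each other, and the La/SSB libraries lay between them and the rest. Against FLAG it rose by 6.72 ± 0.74 with hnRNP H1 (adjusted p = 3.24e-06), by 7.38 ± 0.76 with hnRNP F (2.18e-06) and by 3.08 ± 0.64 with La/SSB (0.00477). Against Input it rose by 5.15 ± 0.66 with hnRNP H1 (adjusted p = 8.36e-06) and by 5.83 ± 0.68 with hnRNP F (4.23e-06). These hnRNP H1 and hnRNP F calls held under every alternative run, and the La/SSB call was lost only in a fit of the 6 libraries compared alone (0.118). The 10 neuronal markers took 0.156% to 0.225% of reads in hnRNP H1 RIP and 0.144% to 0.247% in hnRNP F RIP, against 0.0988% to 0.1103% in FLAG RIP, 0.130% to 0.168% in hnRNP K RIP and 0.0958% to 0.143% in La/SSB RIP. Among them Snap25 was at 0 in 2 hnRNP H1 libraries, and Prph in 2 FLAG libraries and in 1 library each of hnRNP H1, hnRNP F and hnRNP K. The 4 erythrocyte markers took 0.0309% to 0.0738% in hnRNP H1 RIP and 0.0480% to 0.113% in hnRNP F RIP, against 0.753% to 2.25% in FLAG RIP, 0.403% to 0.928% in Input, 0.167% to 0.226% in hnRNP K RIP and 0.283% to 0.541% in La/SSB RIP. The part of both marker lists in the results against FLAG was not tested.

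Between the antibodies, Itgb3 was lower in hnRNP K RIP than in hnRNP H1 and hnRNP F together (-5.86 ± 0.69, adjusted p = 2.23e-06), and lower in La/SSB RIP than in them (-3.97 ± 0.61, adjusted p = 0.000122). hnRNP H1 and hnRNP F differed from each other by -0.66 ± 0.57 (adjusted p = 0.735, no call). hnRNP K lay below La/SSB (-1.90 ± 0.61, adjusted p = 0.0469) in the fit without pairing. A replicate block over the RIP libraries raised the adjusted p to 0.0572. Leaving out any 1 of 12 libraries also ended the call (0.0519 to 0.185). The deposited length of the Itgb3 entry is 2367 bases, the shortest of the 27. Per length, Itgb1 exceeded Itgb3 by a ratio of 75.1 ± 22.0 in Input and 80.7 ± 56.8 in hnRNP K RIP, whereas the ratio was 0.766 ± 0.377 in hnRNP H1 RIP and 0.598 ± 0.152 in hnRNP F RIP. Itgav, its alpha partner among the 27, did not reach comparable levels in those libraries: it had 15, 70 and 27 reads in hnRNP H1 RIP and 26, 8 and 1 in hnRNP F RIP.

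**Figure D4:**
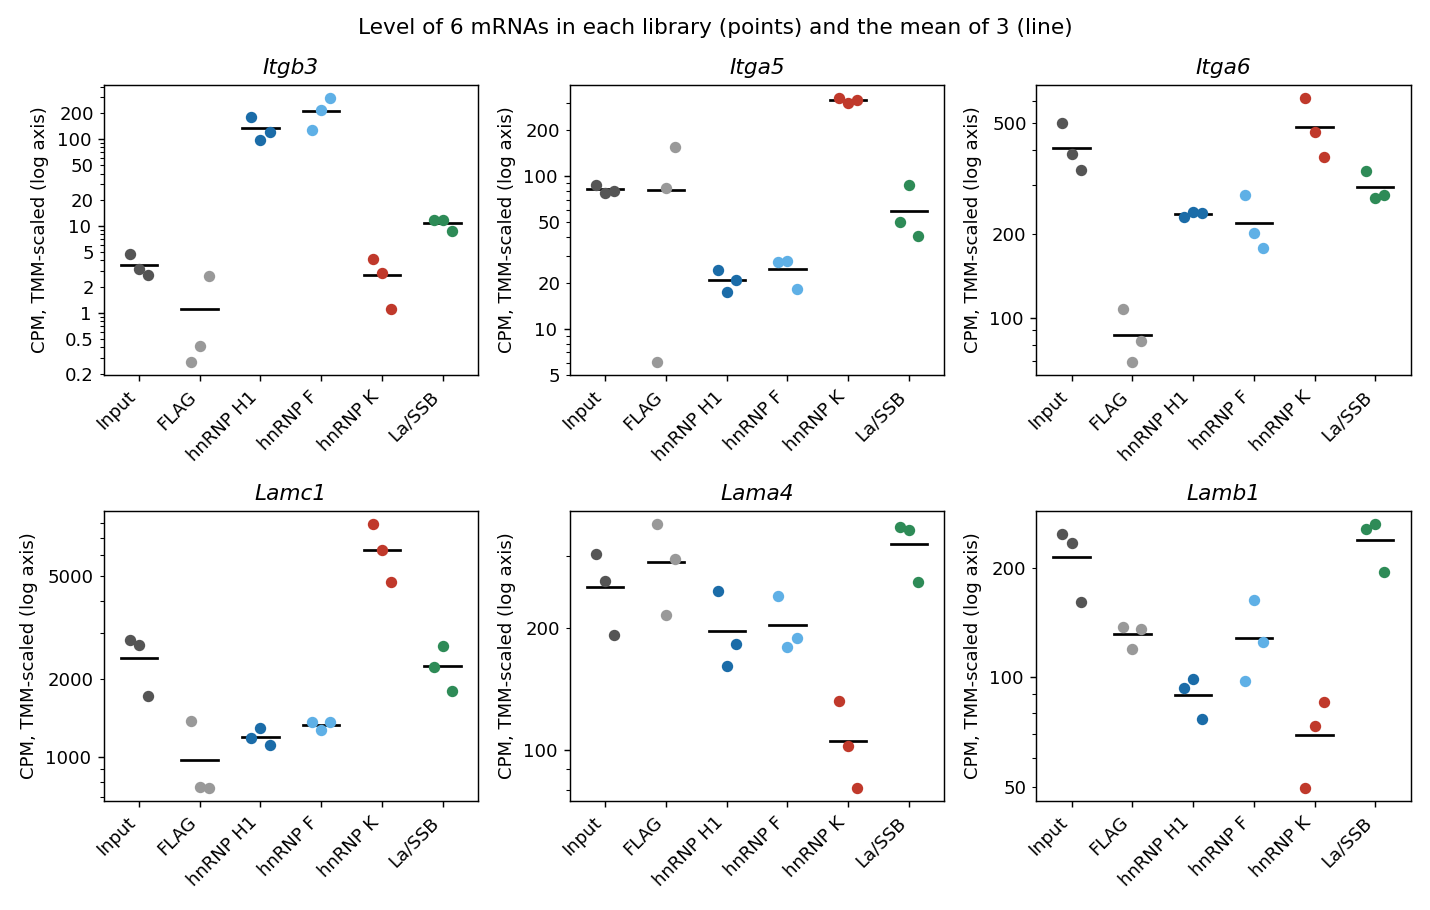
Level of 6 mRNAs in CPM after TMM scaling (y axis, log scale) by group (x axis); points are libraries and lines are means of 3. The 6 hnRNP H1 and hnRNP F libraries hold Itgb3 at 96.0 to 294 CPM while no other library exceeds 11.7, and the 3 hnRNP K libraries are highest for Itga5 and Lamc1 and lowest for Lama4.

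Itgb1, the partner of most alpha chains and the integrin mRNA with the highest level per length in Input, was called with no antibody against FLAG. It stood at 368, 416 and 380.1 CPM in Input, at 191, 198 and 245 in FLAG RIP and at 244, 257 and 247 in hnRNP K RIP. It stood in hnRNP H1 RIP at 104, 167 and 149.5 CPM, in hnRNP F RIP at 134, 227 and 192 and in La/SSB RIP at 226, 291 and 388. hnRNP H1 libraries were all below FLAG and Input, and hnRNP F overlapped FLAG. Its changes against FLAG were -0.60 ± 0.30 (hnRNP H1), -0.21 ± 0.30 (hnRNP F), 0.26 ± 0.30 (hnRNP K) and 0.48 ± 0.30 (La/SSB), none called, while against Input it fell with hnRNP H1 by 1.47 ± 0.28 (adjusted p = 0.000549) and with hnRNP F by 1.07 ± 0.28 (0.00918).

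Itgb4, the partner of Itga6 in a laminin receptor of myelinating Schwann cells, stood at 21.1, 9.99 and 9.47 CPM in Input and at 21.9, 10.4 and 38.2 in FLAG RIP. In hnRNP H1 RIP it stood at 13.9, 4.96 and 4.53 CPM, in hnRNP F RIP at 18.4, 9.84 and 3.34, in hnRNP K RIP at 15.9, 8.81 and 6.54 and in La/SSB RIP at 16.9, 10.2 and 6.41. All 6 groups overlapped, and it was called in none of the 13 pairwise comparisons. Itgb8, which with Itgav releases active TGF-beta, stood at 8.28, 6.77 and 5.11 CPM in hnRNP F RIP, below the other 15 libraries. It stood at 21.6, 33.1 and 18.3 CPM in Input, at 20.5, 18.1 and 20.4 in FLAG RIP, at 11.04, 16.1 and 19.0 in hnRNP H1 RIP, at 24.98, 20.9 and 22.5 in hnRNP K RIP and at 20.6, 17.8 and 17.1 in La/SSB RIP. With hnRNP F it fell by 1.83 ± 0.50 against Input (adjusted p = 0.0128; 0.0761 without Input 2 and 0.0502 without hnRNP F RIP 3) and by 1.52 ± 0.54 against FLAG (adjusted p = 0.0366; 0.0502 to 0.099 without any 1 of 7 libraries).

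Itgb5, a further partner of Itgav, had 0 reads in the 3 FLAG libraries and at most 20 reads in any library. With 3 reads taken as a floor for the FLAG libraries together, it was 20.6-fold higher in hnRNP H1 RIP (31 reads) and 15.7-fold in La/SSB RIP (43). It was 10.8-fold higher in hnRNP K RIP (27) and 7.78-fold in hnRNP F RIP (10), and each was called. Input (14 reads) was 10.8-fold higher by the same floor. Counting error of these reads is not covered. Every entry has at least 10 reads in La/SSB RIP 1, so an entry this low may be listed only through that library. The La/SSB call of Itgb5 is thus not independent of how entries were kept. When FLAG RIP 2 alone stood for FLAG all 4 calls ended (0.0676 to 0.212). Itgb7, a leukocyte chain that pairs with Itga4, lay between 0 and 16.95 CPM and was called in none of the 13 pairwise comparisons.

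Compared directly, hnRNP K RIP differed from hnRNP H1 and hnRNP F RIP together in 10 of the 27 mRNAs, 7 higher and 3 lower, where 34.1% of all entries were called (16.6% higher, 17.5% lower). The 7 were Lamc1, Itga5, Itga3, Itga6, Itga11, Itgb8 and Itgb1, and the 3 were Itgb3, Lamb2 and Lama4. The calls of Itgb8 (1.18 ± 0.44, adjusted p = 0.0452) and Itgb1 (0.67 ± 0.25, adjusted p = 0.047) were lost without any 1 of 10 and of 9 libraries (0.0542 to 0.147 and 0.0517 to 0.127) and with scaling by totals (0.108 and 0.149). Fibroblast and perineurial markers, none at 0 in any library, took 12.2% to 21.6% of the reads in hnRNP K RIP, 8.05% to 12.1% in hnRNP H1 RIP, 6.22% to 9.95% in hnRNP F RIP and 1.65% to 2.62% in FLAG RIP. The 7 of 10 endothelial markers found took 0.0508% to 0.0612% in hnRNP K RIP and 0.0102% to 0.0175% in hnRNP H1 and hnRNP F RIP, and Flt1 was at 0 in 1 FLAG library. The 15 Schwann cell markers took 0.421% to 0.506% in hnRNP K RIP and 0.149% to 0.298% in hnRNP H1 and hnRNP F RIP, and Gjb1 was at 0 in the 3 FLAG libraries. The part of these markers in the hnRNP K results was not tested.

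Between hnRNP H1 and hnRNP F RIP edgeR called 0 of the 27 mRNAs and 0 of the 13276 entries (0.0%). At an unadjusted p under 0.05, 1339 entries (10.1%) and 3 of the 27 (Itga9, Itgb7 and Itgb8) differed, and DESeq2 called 81 entries and 0 of the 27. La/SSB RIP differed from hnRNP H1 and hnRNP F in 6 of the 27 (5 higher, 1 lower), where 18.8% of all entries were called (8.07% higher, 10.8% lower), and with scaling by totals in 14 (13 higher, 1 lower). The 5 were Lamb1, Itgb1, Itga3, Lamc1 and Itgb2, of which Itgb1, Itga3, Lamc1 and Itgb2 were lost without single libraries: Itgb1 without La/SSB RIP 2 (0.0551) or La/SSB RIP 3 (0.149), Itga3 without La/SSB RIP 3 (0.0741), Lamc1 without La/SSB RIP 1 (0.06) or La/SSB RIP 2 (0.139), and Itgb2 without any 1 of 11 libraries (0.057 to 0.164). hnRNP K RIP differed from La/SSB RIP in 6 (2 higher, 4 lower), where 12.6% of all entries were called (7.26% higher, 5.35% lower). With scaling by totals these were 0 higher and 6 lower, and without La/SSB RIP 1 or without hnRNP K RIP 1 the calls were 3. Lamc1 and Itga5 were the 2 that were higher, by 1.55 ± 0.28 (adjusted p = 0.00128) and 2.45 ± 0.66 (adjusted p = 0.0197), and both missed the threshold when scaled by totals (0.0593 and 0.0926). Itga5 was also lost there without La/SSB RIP 1 (0.0809), La/SSB RIP 3 (0.0942) or hnRNP K RIP 1 (0.0609). Across the 4 antibodies, 9 of the 27 differed (Itgb3, Lamc1, Itga5, Lamb1, Itga3, Lama4, Itga6, Lamb2 and Itgb1), where 33.3% of all entries did. Of these, Itga6 was lost without hnRNP K RIP 1 (0.103), Lamb2 without any hnRNP K library (0.0705 to 0.0828) and Itgb1 without any 1 of 7 libraries (0.0547 to 0.102).

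Set against Input, which asks what the precipitates held relative to the axoplasm they came from, few integrin and laminin mRNAs were called higher. With hnRNP H1 and with hnRNP F 6 each were called, 1 higher (Itgb3) and 5 lower, where 24.1% (13.4% higher, 10.7% lower) and 18.9% (11.7% higher, 7.22% lower) of all entries were called. The 5 that were lower with hnRNP H1 were Itgb1, Lamb1, Lamc1 (0.0515 without Input 1), Itga5 (0.0534 to 0.08 without any 1 of 4 libraries) and Itga6 (0.0517 to 0.178 without any 1 of 8 libraries). With hnRNP F they were Itgb1, Itgb8, Itga6 (0.061 to 0.136 without any 1 of 4 libraries), Itgb2 (0.0536 to 0.112 without any 1 of 5) and Lamc1 (0.0632 to 0.129 without any 1 of 5). Without Input 1 the calls were 3 with each, and without Input 2 or hnRNP F RIP 3 those with hnRNP F were 2. With hnRNP K 5 were called, Lamc1 and Itga5 higher and Lamb1, Lama4 and Lamb2 lower, where 13.1% of all entries were called (6.58% higher, 6.47% lower). With scaling by totals the hnRNP K calls were 1 higher and 4 lower, and without Input 1, Input 2 or any hnRNP K library they were 3. Between La/SSB RIP and Input none of the 27 was called by edgeR or by DESeq2. There edgeR called 0.0376% of all 13300 entries (0.0226% higher, 0.015% lower) and DESeq2 77 entries. In that comparison 3 of the 27 (Itgb3, Itgav and Itga8) had an unadjusted p under 0.05, as had 7.96% of all entries. By complete separation of a group's 3 libraries from the other 15, hnRNP K RIP was highest for Itga3, Itga5 and Lamc1, as for 6.92% of all entries, and lowest for Lama4 and Lamb2, as for 4.95%. FLAG RIP was lowest for Itga4, Itga6 and Itgb5 (3.76% of all entries), hnRNP H1 RIP highest for Itga9 (2.25%) and hnRNP F RIP lowest for Itgb8 (0.541%). None of the 27 separated in the other 7 ways, which were met by 0.797% of all entries for Input highest, 0.308% for Input lowest, 5.06% for FLAG RIP highest, 1.62% for hnRNP H1 RIP lowest, 0.91% for hnRNP F RIP highest, 0.459% for La/SSB RIP highest and 0.406% for La/SSB RIP lowest.

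The partners that laminins and integrins bind were counted in 4 lists. In the order given below the lists hold 16, 34, 14 and 21 entries for 14, 31, 12 and 18 genes. Some genes were thus counted by more than 1 transcript. Among 16 entries for laminin partners of the basal lamina, 9 rose and 1 fell with hnRNP K against FLAG, 5 rose and 2 fell with hnRNP H1, 6 rose and 1 fell with hnRNP F, and 6 rose and 1 fell with La/SSB. Of all entries, 18.3% rose and 21.2% fell with hnRNP H1, 16.6% and 17.1% with hnRNP F, 14.5% and 19.4% with hnRNP K, and 9.1% and 9.67% with La/SSB. The median log2 change of the 16 was 0.86 with hnRNP H1, 0.53 with hnRNP F, 2.27 with hnRNP K and 1.097 with La/SSB, beside -0.27, -0.21, -0.30 and -0.32 over all entries. Nid1, which links laminin to type IV collagen through the gamma chain, stood at 13043 ± 2852 CPM in hnRNP K RIP and 1395 ± 336 in FLAG RIP (SD, n = 3), a rise of 3.25 ± 0.27 (adjusted p = 4.06e-07). Col4a1, a type IV collagen chain, rose by 3.47 with hnRNP K (adjusted p = 4.26e-07) and changed by -0.41 with hnRNP H1, without a call. Dag1, the laminin receptor dystroglycan, rose with hnRNP H1 by 3.16 (adjusted p = 4.01e-06), with hnRNP F by 2.38 (6.79e-05), with hnRNP K by 2.31 (0.000105) and with La/SSB by 0.99 (0.0441). When FLAG RIP 2 alone stood for FLAG, 4 of the 16 were called with hnRNP H1, 4 with hnRNP F and 2 with La/SSB, and without La/SSB RIP 1 or La/SSB RIP 2 the La/SSB calls were 3. With scaling by totals the hnRNP H1 calls were 3 higher and 3 lower and the La/SSB calls 6 higher and 0 lower.

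Among 33 tested entries for cytoplasmic integrin partners, 14 fell and 2 rose with hnRNP H1 against FLAG, and the same numbers with hnRNP F, while 8 fell and 6 rose with hnRNP K and 11 fell and 0 rose with La/SSB. The shares of all entries that fell were 21.2% with hnRNP H1, 17.1% with hnRNP F, 19.4% with hnRNP K and 9.67% with La/SSB. Those that rose were 18.3%, 16.6%, 14.5% and 9.1% in the same order, and the medians of the 33 were -1.1001, -1.03, -0.20 and -0.81. In FLAG RIP 10 of these entries were called above Input and 1 below, where 8.71% of all entries were higher and 7.45% lower. That count of 11 did not hold: it was 0 in a fit of the 6 libraries compared alone, 1 when FLAG RIP 2 alone stood for FLAG, 6 and 7 without FLAG RIP 1 and FLAG RIP 3, and 2, 3 and 3 without Input 1, 2 and 3. Vcl, the actin linker vinculin, stood at 537 ± 85.9 CPM in hnRNP K RIP, 56.6 ± 25.1 in FLAG RIP and 41.6 ± 16.1 in hnRNP H1 RIP (SD, n = 3), and rose with hnRNP K against FLAG by 3.27 (adjusted p = 2.03e-05). Ilk, integrin-linked kinase, changed against FLAG by -2.95 with hnRNP H1 (adjusted p = 7.31e-05) and -2.45 with hnRNP F (0.000466). It changed by -1.63 with hnRNP K (0.00744) and -1.41 with La/SSB (0.0275), and so lay below FLAG with all 4. Its mean was 301 ± 117 CPM in FLAG RIP and 109 ± 18.3 in Input (SD, n = 3). With the 4 antibodies it was 39.2, 55.3, 96.2 and 116 CPM in the same order, so hnRNP K and La/SSB lay near Input. Of the 33, 16 were higher and 2 lower in hnRNP K RIP than in hnRNP H1 and hnRNP F RIP, where 16.6% of all entries were higher and 17.5% lower, and 10 were left called without hnRNP K RIP 1. When FLAG RIP 2 alone stood for FLAG 10, 8, 8 and 0 entries were called with hnRNP H1, hnRNP F, hnRNP K and La/SSB, and without hnRNP K RIP 1 or hnRNP F RIP 1 those groups had 9 and 10. For La/SSB the calls were 7, 5, 7 and 6 without FLAG RIP 1, La/SSB RIP 1, La/SSB RIP 2 and La/SSB RIP 3, and 5 (all lower) with scaling by totals, which gave 0 higher and 19 lower with hnRNP F, 3 higher and 12 lower with hnRNP K, and 3 higher and 1 lower for FLAG against Input.

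Among 13 tested entries for membrane partners of integrins, 7 rose and 2 fell with hnRNP H1, 6 rose and 2 fell with hnRNP F, 5 rose and 4 fell with hnRNP K, and 3 rose and 2 fell with La/SSB. The shares of all entries that rose were 18.3%, 16.6%, 14.5% and 9.1% in the same order, and those that fell were 21.2%, 17.1%, 19.4% and 9.67%. The medians of the 13 were 2.21, 1.96, 0.94 and 0.39. The tetraspanins Cd9, Cd63 and Cd82, membrane proteins that cluster integrins, followed hnRNP H1 and hnRNP F. Cd9 stood at 128 ± 24.3 CPM in hnRNP H1 RIP, 144 ± 36.0 in hnRNP F RIP, 12.995 ± 0.733 in FLAG RIP and 5.42 ± 0.968 in hnRNP K RIP (SD, n = 3), and differed in hnRNP K RIP from hnRNP H1 and hnRNP F by -4.58 (adjusted p = 2.04e-07). Sdc4, a syndecan that acts with fibronectin receptors, rose with hnRNP H1 by 4.09 (adjusted p = 9.07e-07) and with hnRNP F by 3.40 (4.18e-06). The tetraspanin Cd81 instead lay below FLAG with all 4 antibodies. Its changes were -2.24, -1.87, -1.55 and -1.53 with hnRNP H1, hnRNP F, hnRNP K and La/SSB (adjusted p = 3.61e-05, 0.000249, 0.00117 and 0.00425). Its mean was 396 ± 118 CPM in FLAG RIP, 218 ± 29.5 in Input and 84.3, 109, 133 and 140 with the 4 in that order. Without hnRNP K RIP 2 or hnRNP K RIP 3 the hnRNP K calls were 5, and without FLAG RIP 3 or La/SSB RIP 1 the La/SSB calls were 3. With scaling by totals they were 3 higher and 4 lower with hnRNP K and 3 higher and 1 lower with La/SSB.

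Among 21 entries for other integrin ligands, 0 rose and 3 fell with hnRNP H1, 2 rose and 3 fell with hnRNP F, 2 rose and 4 fell with hnRNP K, and 1 rose and 1 fell with La/SSB, where 39.5%, 33.7%, 33.9% and 18.8% of all entries were called in either direction. The medians of the 21 were -0.22, 0.08, 0.04 and 0.07. These counts moved with the processing, from 0 to 7 with hnRNP H1 and hnRNP F, 2 to 7 with hnRNP K and 0 to 5 with La/SSB over all alternatives. Without FLAG RIP 1 they were 7 with hnRNP H1 and 5 with La/SSB, without hnRNP K RIP 1, 2 or 3 they were 2, 2 and 3 with hnRNP K, and without FLAG RIP 3, hnRNP F RIP 2 or hnRNP F RIP 3 they were 2, 3 and 2 with hnRNP F. The La/SSB calls were 1 without La/SSB RIP 2, La/SSB RIP 3, hnRNP F RIP 2 or hnRNP K RIP 2. With scaling by totals they were 0 higher and 5 lower with hnRNP F and 4 higher and 1 lower with La/SSB. Spp1, osteopontin and a ligand of the Itgav and Itgb3 receptor, changed against FLAG by -2.16 with hnRNP K (adjusted p = 0.0219), and by -0.72 with hnRNP H1 and 1.31 with hnRNP F, neither called.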

How the data were processed

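Counts, 1 table for the 18 libraries, were deposited by the authors per transcript with 1 added (the lowest value is 1 in 17 libraries), per the file headers and the values. The authors also deposited FPKM values, which equal the counts minus 1 per kilobase and 1000000 reads. Per the submitters' processing notes CASAVA 1.8.2 and edgeR were used. Aligner, counter, strand setting, genome build and table filter were not given in the sources used here. Without strand, reads of overlapping genes cannot be told apart. In La/SSB RIP 1 every entry has at least 10 reads, so entries low in that library may be missing. 18 per-sample columns of normalised counts were not used.

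Deposited counts were tested with edgeR 4.0.16 in R 4.3.3 (two-sided quasi-likelihood F-test, filterByExpr with minimum count 10 and total 15, TMM). RIP comparisons used the 15 RIP libraries (13276 entries, 10 residual degrees of freedom), those with Input all 18 (13300 entries, 12 residual degrees of freedom). The scripts were checked on simulated data. CPM values are counts minus 1 over TMM-scaled totals, so 3 reads are 0.187 to 0.59 CPM. Lower bounds use 3 reads per group of 3 libraries where that group is at 0. They cover counting error in that group only, not in the group set against it.

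Members and lists were chosen with earlier results of these data known. Every library's value is given for the 12 members with the smallest p among the 4 antibodies, the 4 highest in Input per class and the Schwann cell laminin chains and receptors. Alternatives were DESeq2 1.42.0, DESeq2 size factors, total scaling, no filter, counts minus 1, a replicate block, fewer libraries and leaving out each library. The main tests fit no pairing, and the replicate block is an alternative only. Same-numbered hnRNP K and La/SSB libraries deviated together (correlations 0.195, 0.12 and 0.12), the 1 of 15 group pairs with all 3 over 0.1. The lowest correlation over all pairs was 0.00529, so none was negative, and pairing of the other groups is not excluded. All 18 libraries correlated best with libraries of their own number. 1 of the 27 entries enters the counts but is not reported here.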

Additional observations from a re-analysis of the deposited data

Results flagged for a closer look

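Itga5 was set apart because antibodies moved it in opposite directions against the same FLAG RIP: higher with hnRNP K, lower with hnRNP H1 and with hnRNP F. The direct test of hnRNP K against hnRNP H1 and hnRNP F gave a log2 difference of 3.81 (adjusted p = 1.94e-05), with all 3 hnRNP K libraries above all 6 others. The FLAG libraries held Itga5 at 6.07, 83.0 and 154 CPM. The calls against FLAG held under 17 (hnRNP K), 17 (hnRNP H1) and 5 (hnRNP F) of 23 alternatives. The direct difference restates the same gap between the same 9 antibody libraries and is no independent evidence for it.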

How the results depend on the processing

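Of 100 calls of single integrin and laminin mRNAs, 36 held under every alternative run, and over 2322 alternative values 2041 kept their call, 281 lost it and 0 changed direction. Counts of calls moved by over 1.5 times as follows. With FLAG RIP 1 and 3 left out, where the lone FLAG library is assumed to vary like the other groups, they were 5, 5, 7 and 4 against FLAG (in the order hnRNP H1, F, K and La/SSB) and 3 for FLAG against Input. With the compared libraries alone in the fit, they were 4, 2, 7 and 3 against FLAG in that order, 1 for FLAG against Input and 10 for hnRNP K against La/SSB. With scaling by totals, they were 10 for hnRNP H1 against Input and 14 for La/SSB against hnRNP H1 and hnRNP F. Total scaling moved the median over all entries from -0.27 to -0.61 (hnRNP H1), -0.21 to -0.54 (hnRNP F), -0.30 to -0.80 (hnRNP K) and -0.32 to 0.07 (La/SSB) against FLAG, from -0.15 to -1.04 for hnRNP K against La/SSB and from 0.12 to 0.85 for La/SSB against hnRNP H1 and hnRNP F. The cause of these changes was not tested beyond the smaller number of libraries. Leaving out 1 library gave 7 to 11 (hnRNP H1), 7 to 12 (hnRNP F), 8 to 13 (hnRNP K) and 7 to 10 (La/SSB) calls against FLAG, 6 to 9 for FLAG against Input, 3 to 7, 2 to 7, 3 to 5 and 0 to 0 for the same 4 antibodies against Input, 7 to 10 for hnRNP K and 4 to 8 for La/SSB against hnRNP H1 and hnRNP F, 0 to 0 between hnRNP H1 and hnRNP F, 3 to 7 for hnRNP K against La/SSB and 6 to 11 across the 4 antibodies. With the replicate block, calls were 9, 9, 13 and 10 against FLAG, 10 for FLAG against Input, 6, 6, 5 and 0 against Input, 10, 0, 7 and 5 between antibodies and 11 across them, and the paired hnRNP K and La/SSB comparison lost Itgb3 alone. The labels give only a number, yet 18 of 18 libraries correlated best with libraries of their own number. The 4 of 7 skeletal muscle markers found took their highest share of reads in library 1 of every group and their lowest in library 2. Deviations thus followed the number, but what a number stands for is not given. The main tests fit no pairing, so their p-values take no account of material or a batch that same-numbered libraries may share. Over the 3 FLAG libraries Itgb5 had 0 reads, Itga3 9, Itgav 14, Itga8 17, Itgam 54 and Itga4 68, so counting error is large for these genes.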
